A study of Glycine max with 16 samples.

Results

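In field-grown soybean leaves, 75 genes had a mean transcript level that was higher at each successive time point from 8:00 to 17:00 and that ended at least 12 times above its 8:00 level. They were chosen from the read counts themselves. Counts were scaled to CPM, the count a gene would have in a library of a fixed size, with TMM factors, which correct for differences in library composition, and averaged over the 4 plots at each hour. A gene belonged to the set if its 4 means rose at every step, its 17:00 mean was at least 20 CPM and at least 12 times the 8:00 mean, and its 17:00 mean was less than 4 times the 14:00 mean. Of 56044 genes in the table, 36059 had 8 or more counts in any library. The means of 5384 of these rose at every step, 1366 of them reached 20 CPM at 17:00, 81 of those had the 12-fold rise, and 75 also met the last condition, which leaves out genes that appear only at dusk. The values at the 4 hours therefore chose the genes, and they are given as a description with no test.

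The plants were Glycine max cultivar 93B15 in reproductive growth, untreated, in the field near Champaign, Illinois. The 3 leaflets of an uppermost, fully expanded leaf were pooled into 1 sample per plot at 8:00, 11:00, 14:00 and 17:00, and poly-A RNA was sequenced, which gave 16 libraries, 4 for each hour. The 4 plots are the replicates. Each was sampled on a day of its own, so plot and day cannot be told apart, and each value comes from 1 leaf. The libraries held 14968570 to 25691784 counted reads (median 21411331). Of the leaf markers that could be looked up, the Rubisco small chain gene Glyma.13G046200 averaged 6052 CPM at 17:00 and 9764 CPM at 8:00, and the chlorophyll a-b binding protein gene Glyma.08G082900 averaged 2746 CPM at 17:00 and 3033 CPM at 8:00. The other 4 marker loci averaged 2.80 to 272 CPM at 17:00 and 0.674 to 395 CPM at 8:00, and 2 of the 6, Glyma.02G080800 and Glyma.02G305400, were called higher at 17:00 and none lower. Markers of seed, nodule and flower matched no locus in the annotation used here and were not analysed. CPM is not divided by transcript length, so levels are compared between hours and plots of 1 gene and not between genes.

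Leaf transcripts change over the day under the joint control of light, temperature, sugars and the circadian clock, an internal oscillator that anticipates dawn and dusk. Some genes peak at dawn, others around midday and others at dusk. Names could be paired with 5 of the 75 loci. The annotation was read for 931 loci, those with the most variable levels between plots, and 4 members had a description in it. Having a name therefore favoured genes that differ between plots, and the named members do not stand for the set. Glyma.10G251500 is a thiamine thiazole synthase, which makes the thiazole ring of thiamine (vitamin B1). Glyma.06G247100 is a protochlorophyllide oxidoreductase, the light-requiring enzyme late in chlorophyll synthesis. Glyma.17G230700 is named from its best match in mung bean as an asparaginyl endopeptidase, a vacuolar protease that cleaves after asparagine. Glyma.18G127200 is named from Medicago as the peptide transporter PTR1, of a family of proton-coupled carriers of short peptides. Glyma.11G093100 is named from poplar as a cytochrome P450, of the large family of haem-containing oxygenases. The other 70 loci are given by identifier alone. Loci are those of the Williams 82 genome, assembly version 2 with annotation version 1, in which the digits before the G give the chromosome.

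Together the 75 transcripts averaged 604 ± 209 CPM at 8:00, 1876 ± 522 CPM at 11:00, 7579 ± 1437 CPM at 14:00 and 16856 ± 5282 CPM at 17:00 (SD, n = 4). As a share of all counted reads this was 1.87 ± 0.51% at 17:00, against 0.0566 ± 0.0223% at 8:00. At 17:00 the summed level was 11960, 13920, 17578 and 23968 CPM in plots 1 to 4, so the sum was highest in plot 4 and lowest in plot 1. Glyma.20G142000, Glyma.10G251500 and Glyma.17G230700 held 51.4% of the 17:00 sum. In whole leaflets, fewer cells of a type and less RNA per cell cannot be told apart, here and in each result that follows.

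**Figure D1:**
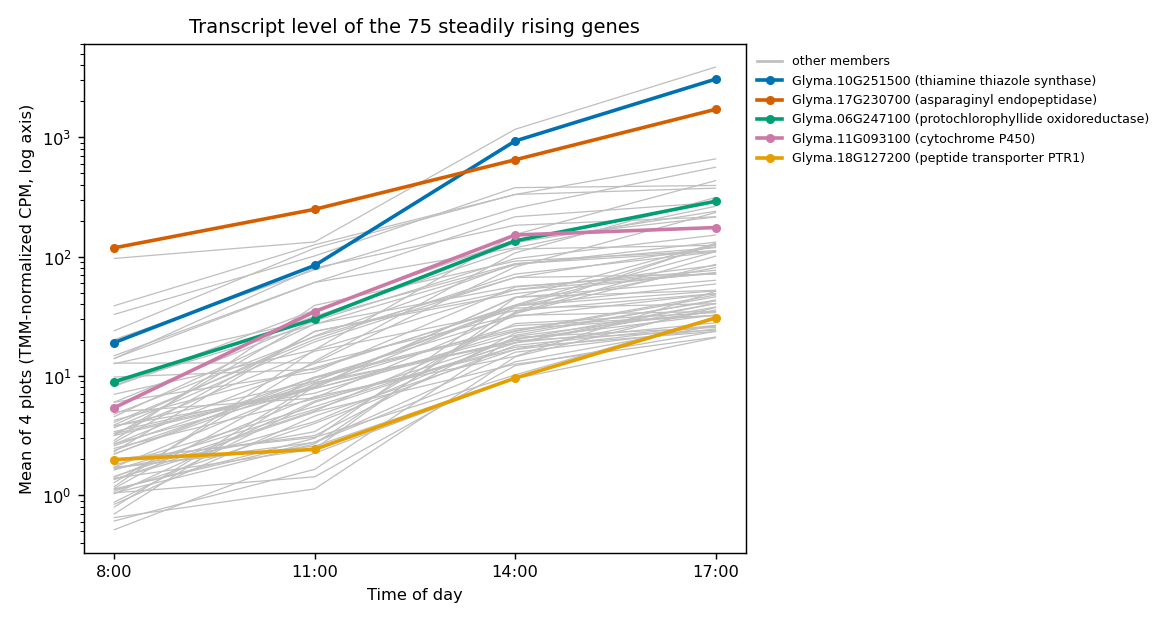
Mean transcript level of each of the 75 genes (TMM-normalized CPM on a log axis, mean of 4 plots) at the 4 times of day, with the 5 named genes in colour and the others in grey. The lines span 20.9 to 3876 CPM at 17:00 and 0.514 to 118 CPM at 8:00, and most flatten after 14:00.

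The median member stood at 2.70 CPM at 8:00, 9.59 CPM at 11:00, 38.6 CPM at 14:00 and 71.2 CPM at 17:00. The ratio of the 17:00 mean to the 8:00 mean had a median of 20.2 and reached 367. It lay between 12 and 20 in 37 members and was at least 100 in 5. In 30 members the 17:00 mean was at least 100 CPM. The 8:00 values were often few reads: the lowest 8:00 count of a member ranged from 1 to 1445 reads with a median of 29, and 4 of the 5 members with ratios of at least 100 had 7 to 19 reads in their lowest 8:00 library. The fifth, Glyma.10G251500, had 81.

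The thiamine thiazole synthase gene Glyma.10G251500 had 28.8, 4.22, 12.5 and 30.6 CPM at 8:00 in plots 1 to 4, and 106, 17.1, 177 and 37.1 CPM at 11:00. It had 930, 606, 1256 and 931 CPM at 14:00 and 2312, 2388, 3556 and 4030 CPM at 17:00. All 4 plots rose at each step, and no 14:00 or 17:00 library overlapped an earlier hour, whereas the 8:00 and 11:00 libraries overlapped. Plot 2 was lowest of the 4 plots at 8:00, 11:00 and 14:00. The 17:00 mean of 3072 ± 856 CPM was 161 times the 8:00 mean of 19.0 ± 12.8 CPM (SD, n = 4), and within plots the ratio ran from 80.3 to 567. Its largest step, 3.46 on the log2 scale, fell between 11:00 and 14:00.

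The protochlorophyllide oxidoreductase gene Glyma.06G247100 had 8.46, 14.7, 4.8 and 7.8 CPM at 8:00 in plots 1 to 4, 53.5, 10.1, 21.2 and 35.1 CPM at 11:00, 116, 120, 232 and 74.0 CPM at 14:00 and 237, 357, 353 and 215 CPM at 17:00. It rose at every step in 3 plots, while in plot 2 the 11:00 library lay below the 8:00 library. Its 17:00 mean of 291 ± 74.8 CPM was 32.5 times the 8:00 mean of 8.94 ± 4.15 CPM. A second locus with this name, Glyma.12G222200, was not in the set. That locus averaged 174 ± 62.8, 326 ± 68.7, 621 ± 241 and 570 ± 121 CPM at the 4 hours, so it was lower at 17:00 than at 14:00 and its 17:00 mean was 3.27 times its 8:00 mean. The steep rise therefore belonged to 1 of the 2 loci. The annotation gives both the same name, and reads from near-identical copies could be split between them in counting.

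The asparaginyl endopeptidase gene Glyma.17G230700 was the member with the smallest p between plots. It had 211, 452, 1466 and 5042 CPM in plot 4 at 8:00, 11:00, 14:00 and 17:00, against 106, 141, 374 and 658 CPM in plot 1, 75.2, 152, 305 and 488 CPM in plot 2 and 81.6, 251, 446 and 672 CPM in plot 3. Plot 4 was highest at each hour and stood furthest above the others at 17:00. All 4 plots rose at every step, by 6.22 to 23.9 times over the day. The 14.5-fold ratio of the means (3.86 on the log2 scale) owed much to plot 4, and without that plot it was 2.79 on the log2 scale, which is below the 12-fold limit of the set. Averaged over the day, plot 4 exceeded the other plots by 2.00 ± 0.22 on the log2 scale (SE, adjusted p = 0.000177, edgeR). The gene met the rule only with plot 4 included, so its choice favoured this difference.

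The cytochrome P450 gene Glyma.11G093100 had 12.6, 85.7, 279 and 391 CPM in plot 4 at the 4 hours, against 2.68, 12.1, 86.3 and 72.3 CPM in plot 1, 0.52, 6.61, 98.5 and 82.6 CPM in plot 2 and 5.79, 33.9, 143 and 155 CPM in plot 3. Plot 4 was again highest at every hour. Plots 1 and 2 were lower at 17:00 than at 14:00, so 2 plots rose at every step. Without plot 4 its 17:00 mean was below its 14:00 mean. The difference between plot 4 and the others was 2.07 ± 0.25 on the log2 scale (adjusted p = 0.000299, edgeR), and that between plot 2 and the others was -1.47 ± 0.30 (adjusted p = 0.0172). Here too the rule was met only with plot 4 included, so the choice of the gene favoured a high plot 4.

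The rise of the PTR1 gene Glyma.18G127200 was largest in plot 4. Plot 4 had 3.37, 6.28, 29.0 and 94.1 CPM at the 4 hours, against 1.45, 0.588, 1.93 and 10.1 CPM in plot 1, 0.989, 1.67, 1.66 and 2.25 CPM in plot 2 and 2.14, 1.15, 5.73 and 16.0 CPM in plot 3. Plot 4 alone rose at every step, and in plot 2 the ratio of 17:00 to 8:00 was 2.27. It was the only member whose 8:00 and 17:00 libraries overlapped, and without plot 4 its 17:00 mean was 9.46 CPM, below the limit of the set. Plot 4 exceeded the other plots by 2.87 ± 0.34 on the log2 scale (adjusted p = 0.000287, edgeR), the largest plot difference among the members. Since the gene was a member only through plot 4, its choice favoured this difference as well.

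**Figure D2:**
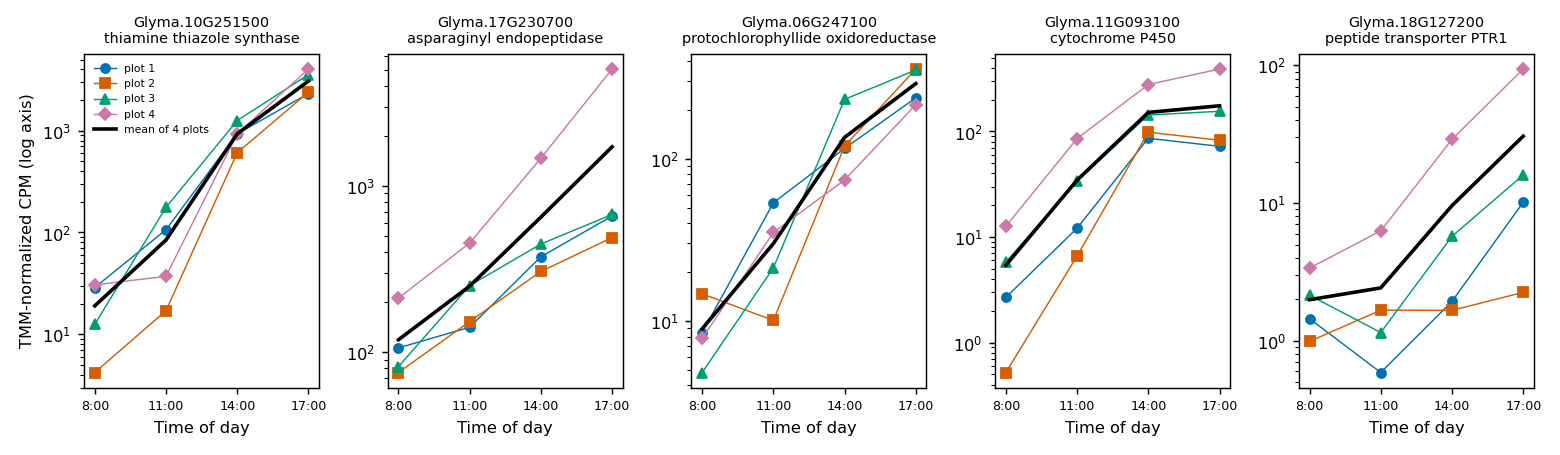
Transcript level in each library (TMM-normalized CPM on log axes that differ between panels) of the 5 named members over the 4 times of day, with a coloured line and marker for each plot and the mean of 4 plots in black. Plot 4 lies above the other plots at every hour for Glyma.17G230700, Glyma.11G093100 and Glyma.18G127200, and not for Glyma.10G251500 or Glyma.06G247100. The annotation read for names covers the loci most variable between plots, which favours such differences.

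Among the loci without a name, Glyma.20G142000 had the most reads at 17:00. Its 8:00 libraries differed widely, with 198, 30.4, 18.6 and 139 CPM in plots 1 to 4, and 11:00 had 226, 25.7, 198 and 80.3 CPM. It then had 1190, 748, 1429 and 1301 CPM at 14:00 and 2741, 3244, 4762 and 4757 CPM at 17:00. The plots lay closer together in the afternoon than in the morning, and the ratio of 17:00 to 8:00 ran from 13.8 to 256 between plots. In plots 2 and 4 the 11:00 library was below the 8:00 library.

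Glyma.16G177800 had the largest ratio, and it was low in every morning library. It had 1.34, 0.781, 1.04 and 1.56 CPM at 8:00 in plots 1 to 4, 21.1, 5.22, 28.1 and 11.9 CPM at 11:00, 124, 133, 215 and 141 CPM at 14:00 and 287, 429, 434 and 582 CPM at 17:00. The 4 hours stood in order without overlap, and the 17:00 mean was 367 times the 8:00 mean, with 214 to 549 times within plots. Glyma.04G196400 behaved alike, at 1.28 ± 0.35, 13.3 ± 7.97, 107 ± 46.3 and 313 ± 159 CPM over the day, a ratio of 245. Of the other members with the largest ratios, Glyma.15G011500 (123-fold), Glyma.05G239400 (115-fold), Glyma.08G046500 (79.5-fold) and Glyma.08G050500 (57.6-fold) stayed below 4 CPM on average through 11:00 and made their largest step after it. Glyma.08G248000 (75-fold) differed, since it had risen to 8.17 CPM by 11:00 and was almost level in the afternoon (52.2 ± 4.43 CPM at 17:00, against 45.7 ± 5.68 CPM at 14:00). With 3 reads in its lowest 8:00 library, that ratio is loose.

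After Glyma.17G230700, the most reads at 17:00 fell to Glyma.19G113000 and Glyma.10G013700. Glyma.19G113000 averaged 38.7 ± 15.8, 126 ± 54.2, 331 ± 68.4 and 659 ± 171 CPM over the 4 hours and rose at every step in all 4 plots. Glyma.10G013700 averaged 20.2 ± 16.1, 77.5 ± 43.7, 254 ± 84.9 and 561 ± 241 CPM. Its 8:00 mean was set by plot 2, which had 44.2 CPM against 11.4, 14.2 and 10.8 CPM in plots 1, 3 and 4, whereas plot 2 was the lowest plot at 8:00 in 40 members.

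The name of the set says steady, but the steps were unequal. On the log2 scale the median member made 40.8% of its rise between 8:00 and 11:00, 41.7% between 11:00 and 14:00 and 16.0% between 14:00 and 17:00. The first step was the largest in 38 members, the second in 36 and the last in 1. The rule caps the last step by construction and does not cap the others. In 14 members the 17:00 mean was less than 1.25 times the 14:00 mean, and in 27 it was at least 2 times.

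**Figure D3:**
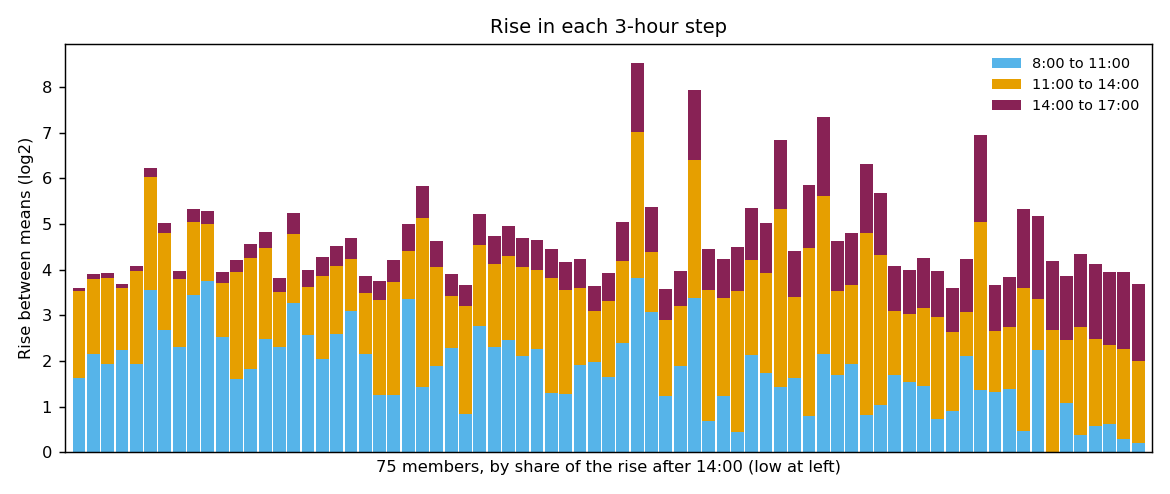
Rise of each of the 75 members between the hourly means (log2), stacked as the steps 8:00 to 11:00, 11:00 to 14:00 and 14:00 to 17:00, with members ordered by the share of the rise after 14:00. That share runs from 1.70% at the left to 45.6% at the right, and the members at the right made little of their rise before 11:00.

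The members that had nearly levelled off by 14:00 were Glyma.18G298500, Glyma.16G209800, Glyma.17G259000, Glyma.01G052700 and Glyma.17G128500. Glyma.18G298500 had 374, 375, 467 and 363 CPM at 17:00 in plots 1 to 4, against 388, 323, 441 and 362 CPM at 14:00. The libraries of these hours overlapped, plot 1 was lower at 17:00, and the step was 0.06 on the log2 scale, which is within the spread of the plots. Glyma.17G259000 was similar, at 8.20 ± 2.64, 31.5 ± 8.06, 116 ± 6.92 and 124 ± 9.24 CPM over the 4 hours. Glyma.20G018000 was also among the 14, with a 17:00 mean 1.13 times the 14:00 mean. No test of this step was run, since the rule used it. In Glyma.17G259000 17:00 was above 14:00 in all 4 plots, and in the other 5 loci named here in fewer.

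At the other end were Glyma.03G098600, Glyma.18G127200, Glyma.12G015100, Glyma.12G015400 and Glyma.09G275300, which made 36.6% to 45.6% of their rise after 14:00. Glyma.03G098600 was flat through the morning, with 9.65, 11.0, 6.16 and 12.3 CPM at 8:00 in plots 1 to 4 and 10.7, 11.7, 11.2 and 11.8 CPM at 11:00. It then had 46.8, 23.5, 39.6 and 47.1 CPM at 14:00 and 66.7, 129, 100 and 207 CPM at 17:00. Its morning libraries overlapped and its afternoon libraries did not. Glyma.09G275300 had the same form, at 5.0 ± 0.89, 6.52 ± 3.03, 33.6 ± 8.92 and 101 ± 14.2 CPM. In 6 members the 11:00 mean was less than 1.5 times the 8:00 mean.

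The rule used means, so each plot was then read alone. The lowest 17:00 library lay above the highest 8:00 library in 74 of 75 members, against 20.4% of all genes. The same separation held for 14:00 over 11:00 in 72 members (9.61% of all genes), for 11:00 over 8:00 in 48 (10% of all genes) and for 17:00 over 14:00 in 36 (7.78% of all genes). In 21 members all 4 hours were in order without overlap, against 0.269% of all genes. These shares follow from the choice of the genes and support nothing. A rise at every step was found in all 4 plots for 45 members, in 3 plots for 22, in 2 for 6 and in 1 for 2, beside 1.73% of all genes with such a rise in all 4 plots. In 41 members the within-plot ratio of 17:00 to 8:00 was at least 12 in all plots.

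The same pattern was then read in libraries that had no part in the choice. The rule was applied to the means of 3 plots, and the genes found were followed in the plot left out. It chose 79, 79, 71 and 69 genes when plots 1, 2, 3 and 4 were left out. Of these, 67, 60, 66 and 54 rose at every step in the plot left out, which is 84.8%, 75.9%, 93.0% and 78.3% of them, beside 11.0%, 10.4%, 15.4% and 13.1% of all genes in that plot. In total the rise was repeated for 247 of 298 choices (82.9%), and 17:00 was above 8:00 in all 298. The full 12-fold ratio was repeated in 229. The counts for 17:00 above 8:00 and for the 12-fold ratio were not made over all genes, so they only describe the genes chosen. Many of the genes were chosen with several plots left out, so these choices are not independent.

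Differences between plots, averaged over the day, were tested across all genes. They are not fully independent of the rule, since a plot with high values can carry a gene past its limits. In that test 5 of the 75 members passed both the adjusted p of 0.05 and the minimum log2 difference of 1 between any 2 plots, which is 6.67% beside 6.31% of all genes, a share near that of all genes. They were Glyma.17G230700, Glyma.11G093100, Glyma.18G127200, Glyma.20G015400 and Glyma.03G030600, which was named after its value was seen. Without the fold minimum there were 11 members (14.7%, beside 10.3% of all genes), and at an unadjusted p under 0.05 there were 33 (44%, beside 27.9%). All 5 were highest in plot 4, and 3 of them, Glyma.17G230700, Glyma.11G093100 and Glyma.18G127200, did not meet the rule on the means of the other 3 plots. With plot 4 left out, no member was called (edgeR, and 350 of all genes), with library totals in place of TMM factors 11 were, and with DESeq2 9 were.

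Glyma.20G015400 shows what such a difference looked like in a gene with little scatter. Plot 4 had 2.70, 13.7, 34.5 and 45.4 CPM at the 4 hours, plot 3 had 3.6, 10.0, 27.5 and 37.2 CPM, plot 1 had 1.5, 9.33, 19.9 and 24.0 CPM and plot 2 had 1.04, 6.06, 17.1 and 22.3 CPM. The plots kept the same order at 11:00, 14:00 and 17:00, and plot 2 was lowest at each hour. Plot 4 was 0.69 ± 0.12 above the other plots (adjusted p = 0.00377, edgeR) and plot 2 was 0.78 ± 0.14 below them on the log2 scale (adjusted p = 0.00905). The overall call was lost without plot 4 and, in an alternative chosen after seeing the data, without the 8:00 and 11:00 libraries of plot 2, while the difference between plot 2 and the other plots was -0.61 and -0.63 in these fits. In Glyma.15G068800 plot 2 was 0.82 ± 0.13 below the other plots on the log2 scale (adjusted p = 0.00569), and its largest difference between plots, 0.92, fell short of the fold minimum.

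The direction of the plot differences was uneven. Plot 4 was higher than the mean of the other plots in 12 members at an adjusted p under 0.05 with no fold minimum (16%, beside 4.21% of all genes) and lower in 1 (beside 5.28%), Glyma.09G231900. Plot 2 was lower in 6 (8%, beside 1.35% of all genes) and higher in 1 (beside 2.77%), Glyma.16G208300, by 1.37 ± 0.35 on the log2 scale. These last 2 loci were named after their values were seen. The choice of members fixed part of these counts: of the 12 members higher in plot 4, 6 did not meet the rule on the other 3 plots (12 of all 75 did not), and of the 6 lower in plot 2, 2 did not meet it without plot 2 (6 of all 75 did not). The counts in plot 4 and plot 2 are therefore given as a description. With the fold minimum the counts were 3 members higher in plot 4 (beside 1.51% of all genes) and 3 lower in plot 2 (beside 0.369%). Called or not, 42 members had their highest estimate in plot 4, which is 56% beside 31.4% of all genes, and 52 had their lowest in plot 2, which is 69.3% beside 29.2%. Of the 42, 34 met the rule without plot 4, and of the 52, 46 met it without plot 2.

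**Figure D4:**
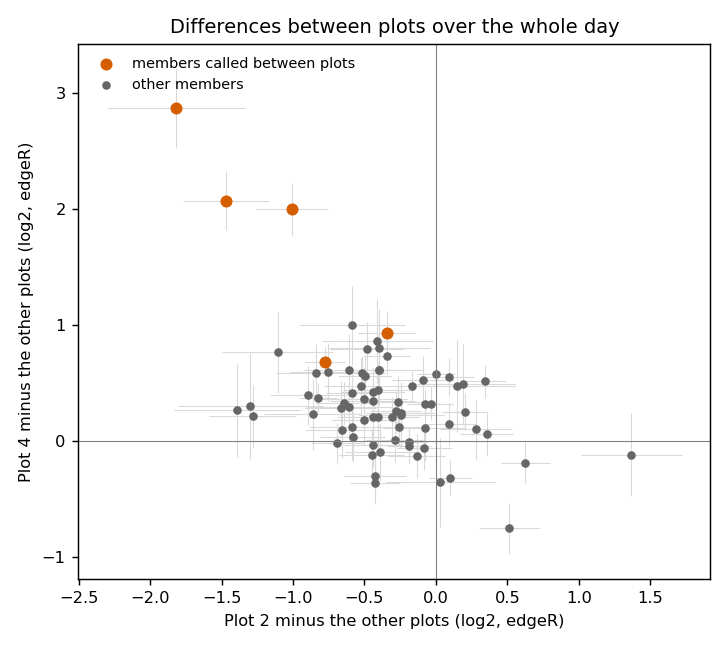
Difference of plot 2 (horizontal) and of plot 4 (vertical) from the mean of the other 3 plots, averaged over the day, for each of the 75 members (log2, edgeR estimates with bars of 1 SE). The members called between plots are in orange, and most points lie in the upper left, where plot 4 is high and plot 2 is low.

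The low position of plot 2 was most marked in the morning. For each gene and hour, the level in a plot was divided by the mean of the other 3 plots. In plot 2 the median of this ratio over members was 0.616 at 8:00, 0.550 at 11:00, 0.822 at 14:00 and 0.953 at 17:00. Over the 20163 genes with a mean of at least 5 CPM the ratio in plot 2 was between 0.943 and 1.01, which TMM scaling holds close to 1. Over the 2762 other genes of that level whose means rose at every step it was 1.04, 0.997, 0.962 and 0.975 at the 4 hours. Plot 2 was the lowest of the 4 plots in 40 members at 8:00, 53 at 11:00, 37 at 14:00 and 12 at 17:00. No such count by hour was made over all genes, for this plot or the others, so these counts only describe the members.

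In plot 4 the median ratio was 1.48 at 8:00, 1.06 at 11:00, 1.15 at 14:00 and 1.29 at 17:00, the highest of the 4 plots at each hour but 11:00, when plots 3 and 1 were higher. Plot 1 changed sides over the day: its ratio was 1.00 at 8:00, 1.22 at 11:00, 0.846 at 14:00 and 0.725 at 17:00, and at 17:00 it was the lowest plot in 43 members. Plot 3 was at 0.789, 1.27, 1.11 and 1.02. Over the 2762 other rising genes the ratio in plot 4 was 1.00, 0.943, 1.00 and 1.06 at the 4 hours. In plot 1 it was 1.01, 1.01, 0.963 and 0.899 for those genes, and in plot 3 it was 0.891, 1.01, 1.05 and 1.04.

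**Figure D5:**
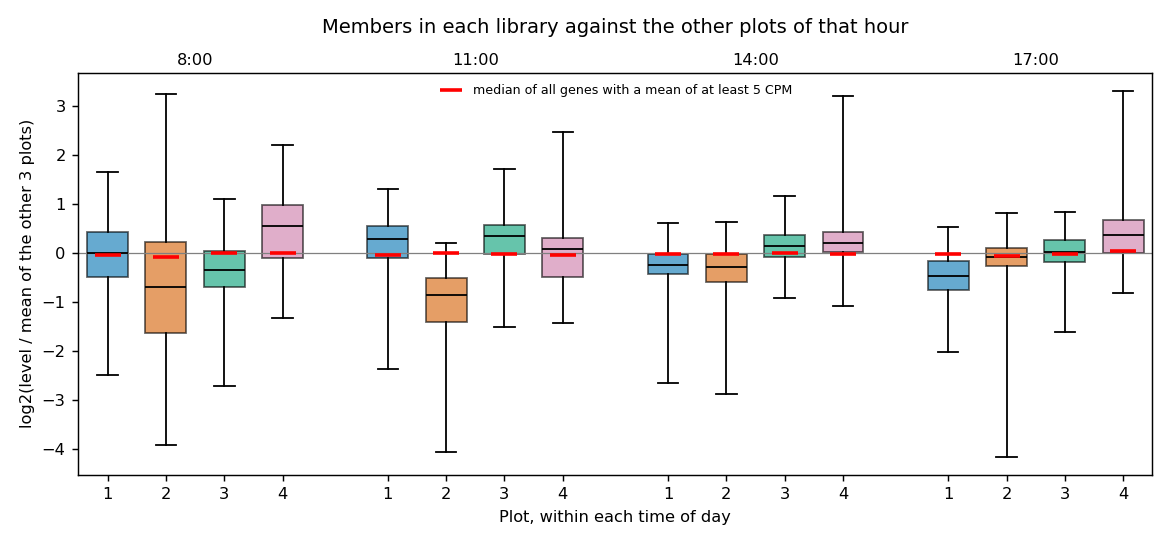
Level of the 75 members in each library divided by the mean of the other 3 plots at that hour (log2), with boxes for the middle 50% of members, a black line at the median and whiskers to the lowest and highest member. Red marks give the median over 20163 genes, which stays near 0, while the members' box for plot 2 at 11:00 lies almost wholly below it.

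The members varied more between plots than genes at large, above all in the morning. The median SD of log2 level over the 4 plots was 0.55 at 8:00, 0.55 at 11:00, 0.33 at 14:00 and 0.38 at 17:00 for members, beside 0.27, 0.22, 0.19 and 0.23 for the 20163 genes. Counting error at low levels is part of these values and was not separated from them. After the hour and plot means were taken off, members still varied together. The median correlation between pairs of members over the 16 libraries was 0.31 (2775 pairs, 29.1% of them above 0.5), beside 0.01 between pairs of the 20163 genes (12.3% above 0.5). These pairs share libraries, so this is a description. Glyma.10G251500, Glyma.16G177800 and Glyma.05G239400 followed the other members most closely, with median correlations of 0.55, 0.54 and 0.54, and Glyma.18G127200 least, at -0.32.

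Whether the steepness of the rise differed between plots was tested with a line over the hours for each plot. No member was called at an adjusted p under 0.05 by edgeR, nor was any of all genes (0%), and limma-voom called none. At an unadjusted p under 0.05 there were 24 members (32%, beside 16.6% of all genes). The smallest adjusted p were 0.0895 for Glyma.03G232700, 0.0914 for Glyma.17G128500, 0.0934 for Glyma.01G069500, 0.104 for Glyma.16G153000 and 0.107 for Glyma.07G073500. In each of these the line was steepest in plot 2. Their lowest 8:00 libraries, those of plot 2 except for Glyma.16G153000, held 12, 18, 6, 64 and 2 reads. Most of these lines thus rest in part on few reads at 8:00. In Glyma.03G232700 plot 2 had 0.625, 10.8, 78.2 and 129 CPM at the 4 hours, against 3.61, 22.6, 85.6 and 105 CPM in plot 1, 5.74, 30.4, 81.3 and 99.3 CPM in plot 3 and 5.56, 22.6, 103 and 107 CPM in plot 4. Plot 2 was thus lowest at 8:00 and 11:00 and highest at 17:00. Over the members the line was steepest in plot 2 in 41 and shallowest in plot 1 in 40, beside 27.6% and 21.8% of all genes. With library totals in place of TMM factors 1 member and 9 of all genes were called, and without plot 2 none of the members and 71 of all genes were called.

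Members lay on 19 of the 20 chromosomes, with 8 each on chromosomes 8 and 17 and none on chromosome 13. These 3 chromosomes held 2506, 1770 and 2527 of the genes kept. Of the 75, 10 formed 5 pairs less than 20 gene models apart, and no count of such pairs was made for other genes. Glyma.12G015100 and Glyma.12G015400, with 2 models between them, moved together. Glyma.12G015100 had 18.1, 30.5, 25.1 and 50.4 CPM at 17:00 in plots 1 to 4, against 2.53, 0.52, 0.574 and 4.38 CPM at 8:00. Glyma.12G015400 had 18.6, 30.7, 26 and 44.8 CPM at 17:00, against 1.96, 0.26, 0.47 and 4.17 CPM at 8:00. Their correlation after hour and plot means were taken off was 0.98, and whether they share reads as near copies was not tested. The pair Glyma.03G030600 and Glyma.03G030800, with 1 model between, had a correlation of 0.78, and both were highest in plot 4 at 8:00, 14:00 and 17:00. Glyma.11G122700 and Glyma.11G123300 reached 0.68, Glyma.16G208300 and Glyma.16G209800 reached 0.72, and Glyma.17G152600 and Glyma.17G153900 reached 0.57. These pairs were named after their values were seen.

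The gene models next to members were also looked at, as a measure that the rule did not use. Of 149 such models 101 were kept and were no members, and 36 of them were higher at 17:00 than at 8:00 by the same thresholds (35.6%, beside 15.6% of all genes, edgeR). Lower at 17:00 were 9 (8.91%, beside 13.1% of all genes). The count of higher neighbours ran between 26 and 33 with 1 plot left out. Several of the steepest were barely detected, such as Glyma.20G157000, which averaged 1.57 CPM at 17:00 against 0.0389 CPM at 8:00, next to a member. Counts that overlap between neighbouring genes could not be told apart here, since no source used here gives the strand setting.

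None of the 11 clock loci looked at was a member. LUX (32.9 ± 8.90 CPM at 17:00, against 0.369 ± 0.399 CPM at 8:00) and the Jumonji gene (68.3 ± 20.1 against 0.394 ± 0.179 CPM) were close to 0 in the morning and exceeded the 4-fold limit on the last step. TOC1, which acts in the evening, averaged 9.67, 7.37, 20.7 and 50.4 CPM at the 4 hours and dipped at 11:00. PRR7 and GIGANTEA levelled off after 14:00, at 117 ± 6.25 and 122 ± 8.24 CPM at 17:00 against 124 ± 9.75 and 125 ± 13.3 CPM at 14:00. The morning genes LCL1 and LCL2 ran the other way. LCL2 had 2.24 ± 0.94 CPM at 17:00 against 1050 ± 181 CPM at 8:00.

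For gene groups, the annotation of 931 loci was read, those with the most variable levels between plots, and 828 of them had a description. The counts below are therefore not those of whole families. Of the lists that gave several loci, auxin response had 24, of which 4 were higher at 17:00 than at 8:00 and none lower (edgeR, beside 15.6% and 13.1% of all genes). The share that was higher lay near that of all genes, and none of the 24 was a member. Their median log2 fold change was 1.23, beside 0.06 over all genes. Many of these loci were barely detected, so that median rests in part on very low counts. Glyma.06G006800, for example, had 0.687 CPM at 17:00 against 0.259 CPM at 8:00 (adjusted p = 0.253, edgeR). Cell wall loosening (expansins and xyloglucan enzymes) had 15, with 4 higher and 1 lower. Heat shock had 7, with 1 higher and none lower, and lists of 6 phenylpropanoid and 4 cold-response loci had none called. Of 5 lipoxygenase loci 1 was lower. Transporters of nitrate, peptides and amino acids had 8, with 2 higher, of which 1 was the member Glyma.18G127200, and 1 lower. The other locus found by the word thiamine, Glyma.04G243000, is described as a thiamine diphosphate-binding protein and not as an enzyme of the synthesis, and it had 1.11 CPM at 17:00 against 1.24 CPM at 8:00. Among lists added after values were seen, 13 cytochrome P450 loci had 2 higher, Glyma.11G093100 included, and 1 lower, and 30 peptidase loci had 5 higher, Glyma.17G230700 included, and 4 lower.

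The thresholds of the rule cut through a continuum. Glyma.17G161400, at 20.9 CPM at 17:00, was the member nearest the level limit, and Glyma.08G333400, at 19.7 CPM, met all other conditions and was left out. Glyma.17G037400 passed the 12-fold limit with a ratio of 12.02, while Glyma.19G011600 missed it at 11.99. For the last step, Glyma.15G011500 stood inside at 3.74 times its 14:00 mean and Glyma.20G031200 outside at 4.01 times.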

How the data were processed

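Transcript abundance was measured by RNA-seq in 16 libraries (4 plots, 4 hours). The authors prepared libraries with a TruSeq kit, trimmed reads with Trimmomatic, aligned them with TopHat to the Williams 82 genome and took counts for each gene from HTSeq-count. CASAVA 1.8.2 is named in the processing notes of the submitters. The deposited counts are raw, in 1 column per library. Their strand setting is not stated in the sources used.

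Tests were run with edgeR 4.0.16 in R 4.3.3 (TMM, quasi-likelihood, Benjamini-Hochberg adjustment over 36059 genes) with hour and plot in the model. A call needed an adjusted p under 0.05 with a log2 difference of 1 or more. The slope test added a line over the hours for each plot, with no fold minimum. Standard errors were back-calculated from the F statistics. Scripts were tested on simulated data. Each replicate number is 1 plot on 1 day, per the labels, which pairs the libraries: deviations from the hour means correlated with a median r of 0.36 within plots (24 pairs) and -0.09 between plots (72 pairs). Libraries of an hour differed by far more than sampling noise (chi-square per gene at least 14.7).

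The members, lists and tests were chosen with earlier results of these data known. Members named are the 8 with the highest 17:00 mean, the 8 with the largest ratio, the 5 with the smallest p between plots and for slope, the 5 at each end of the share of the rise after 14:00, those nearest a threshold and those with a name. Descriptions came from the study's annotation, of which 931 loci were used and 828 had a description. The reference table matched none of the locus identifiers, so closest paralogs, promoters and proteins were not analysed here. Alternatives were DESeq2 1.42.0, limma 3.58.1, other scalings and filters, and each plot left out.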

Additional observations from a re-analysis of the deposited data

Results flagged for a closer look

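Among the named members, 136 groups of 4 libraries of an hour were looked at, the summed level included, and in 12 of them 1 library stood far from the other 3 by Dixon's test at the 95% level. Chance sets apart about 1 in 20 groups. Some of these members were named for a small p between plots or for slope, which favours such groups. The 12 are therefore not to be read as an excess over chance.

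Plot 4 stood apart for Glyma.17G230700, with 1470 CPM at 14:00 (other plots 305 to 446 CPM) and 5040 CPM at 17:00 (488 to 672 CPM), and for Glyma.18G127200, with 29.0 CPM at 14:00 (1.66 to 5.73 CPM) and 94.1 CPM at 17:00 (2.25 to 16.0 CPM). Plot 2 stood apart on the low side at 11:00 for Glyma.01G069500, with 1.83 CPM (5.88 to 6.62 CPM), Glyma.12G015100, with 1.33 CPM (3.5 to 3.86 CPM), and Glyma.12G015400, with 1.00 CPM (2.96 to 3.18 CPM). At 8:00 it stood apart on the high side for Glyma.10G013700, with 44.2 CPM (10.8 to 14.2 CPM), and Glyma.16G209800, with 9.32 CPM (2.95 to 3.55 CPM).

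Plot 1 stood apart at 14:00 for Glyma.17G259000, with 126 CPM (112 to 113 CPM), and for Glyma.12G015400, with 6.08 CPM (10.3 to 11.1 CPM). Plot 3 stood apart at 17:00 for Glyma.18G298500, with 467 CPM (363 to 375 CPM).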

How the results depend on the processing

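The set held 66 to 79 genes with 1 plot left out, 71 with DESeq2 size factors and 92 with library totals alone, and 45 when a rise in each of the 4 plots was also asked, an alternative chosen after seeing the data. Library totals moved the median log2 fold change of all genes between 17:00 and 8:00 by 0.27, and the share of calls that were higher to 69.3%, beside 54.4% with TMM. Under that scaling 11 members differed between plots, and 1 member and 9 of all genes differed in slope. The count of members that differed between plots was 9 with DESeq2, 11 without a fold minimum and 0 to 7 with 1 plot left out, the 0 being without plot 4. Over all genes the plot test called 2275, 3729 without a fold minimum, and 350 to 2074 with 1 plot left out. The slope test called 0 to 71 of all genes with 1 plot left out. Between 17:00 and 8:00, 9767 genes were higher and 8583 lower without a fold minimum. Of the 76 listed loci that were no members, with leaf markers and the lists added later left out, 12 were higher and 5 lower. The counts ran from 5 to 13 and from 4 to 8 with 1 plot left out, and without plot 3 they were 5 and 8. With no replicate block, that is, without the pairing of hours by plot, 7 were higher, and 5294 of all genes were higher and 4492 lower. The causes were not tested. The share of genes chosen on 3 plots that rose at every step in the plot left out was 82.4% with DESeq2 size factors and 78.9% with medians. Without the 8:00 and 11:00 libraries of plot 2, chosen after seeing the data, the set again held 75 genes, of which 69 were members, and 5 members differed between plots. Of 114 values of single genes under the alternatives 110 kept their call or moved by less than the spread between plots, and none reversed. Depth limits the ratios of members with few reads at 8:00, such as 4 of the 5 with ratios of at least 100.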
